A study of Mus musculus with 8 samples.

Results

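A set of 10 genes that cell biologists read as signs of senescence were described in mouse tendon stem cells (TSCs): the cyclin-dependent kinase (CDK) inhibitors Cdkn1a, Cdkn1b, Cdkn2a, Cdkn2b and Cdkn2c, the p53 axis genes Trp53, Mdm2 and Ccng1, the lamin gene Lmnb1 and the lysosomal enzyme gene Glb1. They were taken by symbol, and all 10 were found among the 19301 genes of the table. The samples were primary TSCs, cells grown out of collagenase-digested mouse patellar tendon, and the mice of the study were C57BL/6J of an age not given for these cultures. 4 biological replicates were cultured for 4 days in high fat, high glucose (HFHG) medium, which carried palmitic acid and raised glucose, and 4 in low glucose (LG) medium with the solvent DMSO. HFHG combined both additions, so glucose and palmitic acid cannot be told apart. Values were FPKM, read fragments scaled by gene length and by a read total of the library, so that levels can be compared between genes.

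Senescence is a lasting arrest of the cell cycle. CDK inhibitors hold it in place by keeping the retinoblastoma protein unphosphorylated: the CIP/KIP inhibitors (p21, p27) act mainly on CDK2 complexes, and the INK4 inhibitors (p16, p15, p18) bind CDK4 and CDK6. The transcription factor p53 drives p21 and also its own antagonist Mdm2, while p19ARF, read from the same locus as p16, restrains Mdm2. Loss of lamin B1 and a rise of lysosomal beta-galactosidase, the product of Glb1, are used as markers beside them.

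Cdkn1a and Ccng1 rose by 1.85-fold and 1.76-fold in HFHG medium, with Cdkn2c at 1.78-fold, and Cdkn2b, Mdm2 and Cdkn1b rose by less. Trp53, Glb1 and Cdkn2a fell, and Lmnb1 was low in both groups with no call. In all, 6 of the 10 genes were called higher in HFHG and 3 lower at an adjusted p below 0.05 (limma, Benjamini-Hochberg over all 11710 genes tested). Of all genes tested, 34% were called higher and 30.8% lower, 64.8% together, so a call by itself does not set these genes apart. None of the 10 passed an absolute log2 fold change of 1, a size that 5.31% of the genes tested reached with an adjusted p below 0.05; with quantile normalization 1 did, Cdkn1a at 1.06. Of the 10 genes, 9 had groups that did not overlap, against 59.2% of the genes tested. The median log2 fold change was 0.30 over the 10 genes and 0.02 over all tested genes. An exact permutation test, two-sided, over 70 arrangements gave p = 0.0286, the smallest p it allows, for each of the 10 except Lmnb1.

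**Figure D1:**
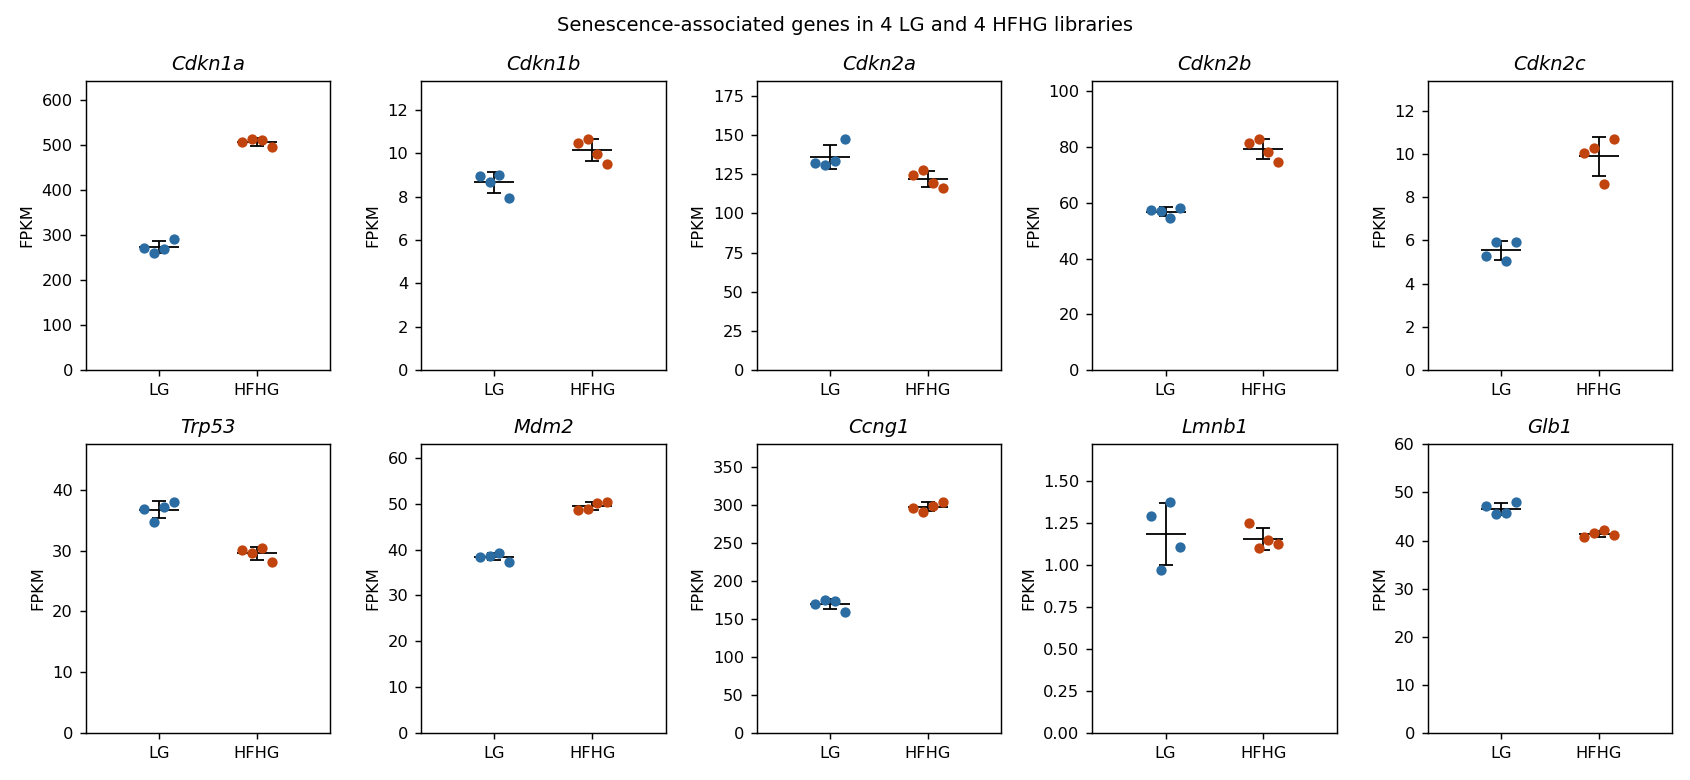
FPKM of the 10 genes in each library, LG in blue and HFHG in red, with the mean and SD of 4 libraries in black; each axis starts at 0 and has its own scale. Only Lmnb1 has overlapping groups, and LG replicate 4 lies highest of its group for Cdkn1a (292 FPKM) and Cdkn2a (148 FPKM) and lowest for Ccng1 (159.9 FPKM).

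The library totals recovered from the FPKM lay between 34308108 and 37362725 reads, so depth was similar in all 8. LG replicate 4 stood apart from the other LG libraries. Its read counts differed from theirs by 8.17 to 11.9 times the Poisson variance, against 3.45 to 4.01 times among the other 3 LG libraries and 3.47 to 4.78 times among the HFHG libraries. The difference followed gene length: relative to its group, the median log2 level of the longest 25% of genes (from 5512 bases) minus that of the shortest 25% (up to 2099 bases) was -0.13 in LG replicate 4 and between 0.02 and 0.07 in the other LG libraries. Each of the 10 genes is therefore also given without that library. Of the cell type markers, 9 of 13 tested tendon genes were higher and 2 lower in HFHG, and the tendon factors Scx (2.27 ± 0.558 and 1.45 ± 0.336 FPKM, SD, n = 4 in HFHG and LG, named after their values were seen) and Mkx (6.73 ± 0.536 and 8.62 ± 0.691) were measured while Kera and Chodl were near 0. Macrophage markers were also present, and their summed FPKM was 1815 to 1863 in HFHG and 2005 to 2095 in LG. Most of that sum was the lysozyme gene Lyz2 (1637 ± 19.4 and 1765 ± 32.6 FPKM, log2 fold change -0.11, but -0.01 with the length trend removed and 0.01 with quantile normalization), while Cd163 was near 0 and no marker of the list was at 0 in every library. Of 13 macrophage genes tested, 10 were lower and 1 was higher in HFHG. The called share was 84.6% for these as for the tendon genes, against 64.8% of all genes tested. Among the lower were the complement gene C1qa (18.6 ± 0.549 and 36.6 ± 2.68 FPKM, log2 fold change -0.97) and the mannose receptor gene Mrc1 (2.64 ± 0.0777 and 4.88 ± 0.370, -0.86). The 1 marker called higher went the other way, and its values are not reported here. In these bulk samples fewer cells of a type and less RNA per cell cannot be told apart.

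Cdkn1a encodes p21, the inhibitor through which p53 halts the cycle. The gene lies at chr17:29090976-29100727 on the plus strand (GENCODE M21 on GRCm38, which is mm10), and RefSeq gives it a pair of start sites 2790 bases apart. The 250 bases before each start are shown because p53 binds Cdkn1a directly and because the start sites differ in what they hold. Capitals mark exact matches to the consensus p53 half-site, a motif of 10 bases that reads the same on both strands. Stretches with a mismatch are neither marked nor counted as half-sites here. The sequences are RefSeq promoters of the GRCm38.p6 build, read 5′ to 3′ on the strand of the gene.
Cdkn1a, upstream start, chr17:29090729-29090978, plus strand: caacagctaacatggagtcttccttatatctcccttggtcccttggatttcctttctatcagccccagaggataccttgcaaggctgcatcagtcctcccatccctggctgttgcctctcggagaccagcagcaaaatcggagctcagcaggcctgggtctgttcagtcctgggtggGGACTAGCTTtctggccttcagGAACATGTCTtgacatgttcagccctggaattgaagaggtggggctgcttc
Cdkn1a, downstream start, chr17:29093519-29093768, plus strand: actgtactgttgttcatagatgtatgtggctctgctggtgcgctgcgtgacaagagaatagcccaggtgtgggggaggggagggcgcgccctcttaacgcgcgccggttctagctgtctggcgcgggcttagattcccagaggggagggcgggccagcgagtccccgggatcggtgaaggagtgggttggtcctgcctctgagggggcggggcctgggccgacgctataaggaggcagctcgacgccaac
The upstream window holds 2 exact half-sites, beginning 73 and 51 bases before the start with 12 bases between them, and the downstream window holds none. The 10 bases directly after the second marked site differ from the consensus by a single mismatch, so the marked pair is not the only possible pair. Among all 32851 RefSeq windows, each running from 250 bases before to 50 after a start, 8.36% held a half-site and 0.0731% held 2 with at most 13 bases between them. A match describes the letters and not binding, and the deposited values do not separate the start sites.

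In the HFHG libraries, replicates 1 to 4, Cdkn1a stood at 507, 514, 510.3 and 495 FPKM. In the LG libraries it stood at 271, 261, 269 and 292 FPKM. Every HFHG library lay above every LG library, and the highest LG value was far below the lowest HFHG value. The means were 507 ± 7.98 and 273 ± 13.1 FPKM (SD, n = 4), and the log2 fold change was 0.89 (SE 0.0310, adjusted p = 8.66e-11), with a 95% interval of 1.77 to 1.94 for the fold. Without LG replicate 4 it was 0.92. Cdkn1a was the most abundant of the 10 genes in both groups and ranked 161 of the 11710 tested genes by mean FPKM, and 4.70% of the tested genes had a larger rise. A transcript of unclassified type on the opposite strand, AC167363.2, shares 273 exon bases with it, 7.68% of its exon length. The library kit was stranded, but the strand setting of the counting is not given in the sources used here.

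The other CIP/KIP members were far less abundant. Cdkn1b, the gene of p27 (chr6:134920401-134925513, plus strand), measured 10.46, 10.7, 9.97 and 9.49 FPKM in HFHG and 8.93, 8.69, 9.01 and 7.96 FPKM in LG. The groups did not overlap but came close, with HFHG replicate 4 just above LG replicate 3. Its log2 fold change was 0.23 (SE 0.0544, adjusted p = 0.00262), and 0.19 without LG replicate 4. Cdkn1c, which encodes p57, was at 2.21 ± 0.534 and 1.56 ± 0.133 FPKM, and it was called (log2 fold change 0.44, adjusted p = 0.0208) although its groups overlapped (exact permutation p = 0.114). That call was lost without LG replicate 4 (0.39, adjusted p = 0.0571), without HFHG replicate 1 (0.0563) or 4 (0.0670), with no filter (0.0549) and with quantile normalization (0.0749).

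The INK4 genes did not move together. Cdkn2a and Cdkn2b are neighbours on the minus strand of chromosome 4, at chr4:89274471-89294653 and chr4:89306299-89311039, with 11645 bases between them. Cdkn2a yields both p16INK4a and p19ARF from first exons whose RefSeq starts lie 12427 bases apart, and the deposited row sums them. Neither promoter window of Cdkn2a, nor that of Cdkn2b, held a p53 half-site.

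Cdkn2a, the senescence marker best known as p16, measured 125, 127, 119.6 and 116 FPKM in the HFHG libraries. The LG libraries had 132, 131, 134 and 148 FPKM. All HFHG values were lower than all LG values, but the distance between the groups was small, and LG replicate 4 stood apart above the rest of its group. The means were 122 ± 5.11 and 136 ± 7.80 FPKM, a log2 fold change of -0.16 (SE 0.0407, adjusted p = 0.00456). Without LG replicate 4 the value was -0.12 (adjusted p = 0.00630). When the trend of each library on gene length was removed, an alternative added after the data were seen, it was -0.07 with an adjusted p of 0.0523, and the call was lost. At 1136 bases, Cdkn2a had the shortest recovered gene length of the 10 genes, and over all tested genes the median log2 fold change was -0.06 in the shortest 25% and 0.08 in the longest 25%.

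Cdkn2b encodes p15, an inhibitor known for its response to TGF-beta, and it measured 81.5, 83.0, 78.4 and 74.5 FPKM in HFHG. In LG it measured 57.3, 57.2, 54.7 and 58.3 FPKM. The groups were widely apart, at means of 79.3 ± 3.74 and 56.9 ± 1.52 FPKM. On the log2 scale the fold change was 0.48 (SE 0.0356, adjusted p = 1.13e-07), and 0.49 without LG replicate 4. Within each library the ratio of Cdkn2b to Cdkn2a FPKM was 0.642 to 0.655 in HFHG and 0.395 to 0.437 in LG, so the neighbours moved apart.

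Cdkn2c, the gene of p18 (chr4:109660876-109667189, minus strand), measured 10.03, 10.3, 8.62 and 10.7 FPKM in HFHG and 5.29, 5.92, 5.07 and 5.91 FPKM in LG. HFHG replicate 3 was the lowest of its group and still above every LG library. On the log2 scale the fold change was 0.82 (SE 0.0741, adjusted p = 7.06e-07), or 0.85 without LG replicate 4, and it rested on 699 to 881 reads per HFHG library and 405 to 484 per LG library. Cdkn2d, which encodes p19INK4d, was higher too (12.0 ± 0.886 and 8.40 ± 1.72 FPKM, 0.53, adjusted p = 0.00115).

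The FPKM of these 5 inhibitor genes was summed with Cdkn1c and Cdkn2d, p19ARF in the Cdkn2a row included. The sum was 473 to 524 in the LG libraries and 720.1 to 759 in the HFHG libraries. Cdkn1a made up 67.6 to 68.8% of that sum in HFHG and 55.2 to 56.1% in LG. The share of Cdkn2a was 16.1 to 16.8% in HFHG and 27.3 to 28.2% in LG. The shares varied little within a group, LG replicate 4 included, since its Cdkn1a and Cdkn2a were both high.

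**Figure D2:**
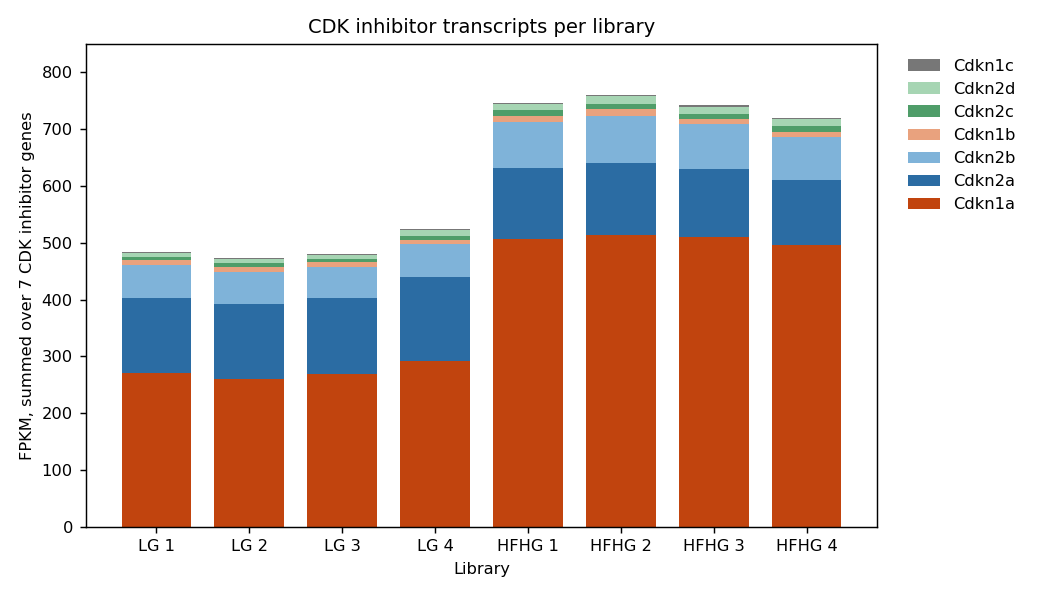
Summed FPKM of 7 CDK inhibitor genes in each library (bars from 0), split by gene, with p19ARF counted in the Cdkn2a part. Cdkn1a in red fills 67.6 to 68.8% of each HFHG bar and 55.2 to 56.1% of each LG bar, while the Cdkn2a part in dark blue is 116 to 127 FPKM high in HFHG and 131 to 148 in LG.

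The kinases and cyclins that these inhibitors act on moved in both directions: of 12 genes, 5 were higher, 3 lower and 4 not called. The called share was 66.7%, near the 64.8% of all genes tested (34% higher and 30.8% lower). Cdk4, the more abundant of the INK4 partners, fell from 115 ± 5.09 FPKM in LG to 74.4 ± 3.54 in HFHG (log2 fold change -0.63, adjusted p = 1.99e-08), and Cdk6 stood at 3.03 ± 0.165 and 2.78 ± 0.0915 without a call. The FPKM of Cdkn2a, Cdkn2b, Cdkn2c and Cdkn2d was summed, with p19ARF counted in the Cdkn2a row. This sum was 2.78 to 3.01 times that of Cdk4 and Cdk6 in HFHG and 1.71 to 1.78 times in LG. Among the D cyclins, which activate CDK4, Ccnd3 rose (76.8 ± 2.56 and 49.4 ± 1.94 FPKM, 0.63), Ccnd2 rose slightly (73.0 ± 1.26 and 64.8 ± 1.63, 0.17) and Ccnd1 fell slightly (79.0 ± 0.971 and 85.7 ± 1.27, -0.12). Of the later cyclins and kinases, Ccne1 (0.42), Cdk1 (0.48) and Cdk2 (0.16) were called higher and Ccnb1 lower (-0.42, adjusted p = 0.0238, groups overlapping), while Ccne2, Ccna2 and Ccnb2 were near or below 1 FPKM and not called. The calls of Cdk2 and Ccnb1 were lost under 8 and 5 of the 19 alternatives (largest adjusted p 0.157 and 0.0721), and that of Ccnd1 under 1, quantile normalization (0.0539). Among 10 tested genes of the RB and E2F families, 5 were higher and 2 lower, a called share of 70% against the same 64.8%. The RB family genes Rb1 (8.07 ± 0.424 and 5.90 ± 0.593 FPKM, 0.45) and Rbl2 (9.74 ± 0.488 and 6.71 ± 0.531, 0.53) rose, as did the repressor E2f6 (18.5 ± 0.547 and 12.8 ± 0.230, 0.52). E2f1, named after its values were seen, also rose (18.4 ± 0.960 and 15.5 ± 0.168, 0.24). Both E2f4 (21.1 ± 1.42 and 23.3 ± 1.38, -0.14) and Tfdp1 (19.8 ± 0.615 and 21.9 ± 0.907, -0.14) fell, with overlapping groups. The E2f4 call was lost under 9 of the 19 alternatives, and that of Tfdp1 under 1, FPKM rescaled to the same sum (adjusted p = 0.0787).

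Of 17 tested proliferation genes, 2 were higher, 6 lower and 9 not called. In all, 47.1% were called, against 64.8% of all genes tested, and the median log2 fold change was -0.09. The replication genes Mcm2 (3.20 ± 0.0551 and 6.22 ± 0.509 FPKM, -0.94), Pcna (25.7 ± 1.14 and 37.1 ± 1.18, -0.53) and Mcm5 (1.12 ± 0.183 and 1.63 ± 0.258, -0.51, groups overlapping) fell. Rrm2, a subunit of ribonucleotide reductase, rose (13.7 ± 0.601 and 8.98 ± 0.572, 0.61), as did the checkpoint kinase gene Bub1b (0.547 ± 0.0462 and 0.348 ± 0.0649, 0.54; adjusted p = 0.127 with quantile normalization). Mki67, named after its values were seen, stood at 0.457 ± 0.0171 and 0.409 ± 0.0854 FPKM.

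**Figure D3:**
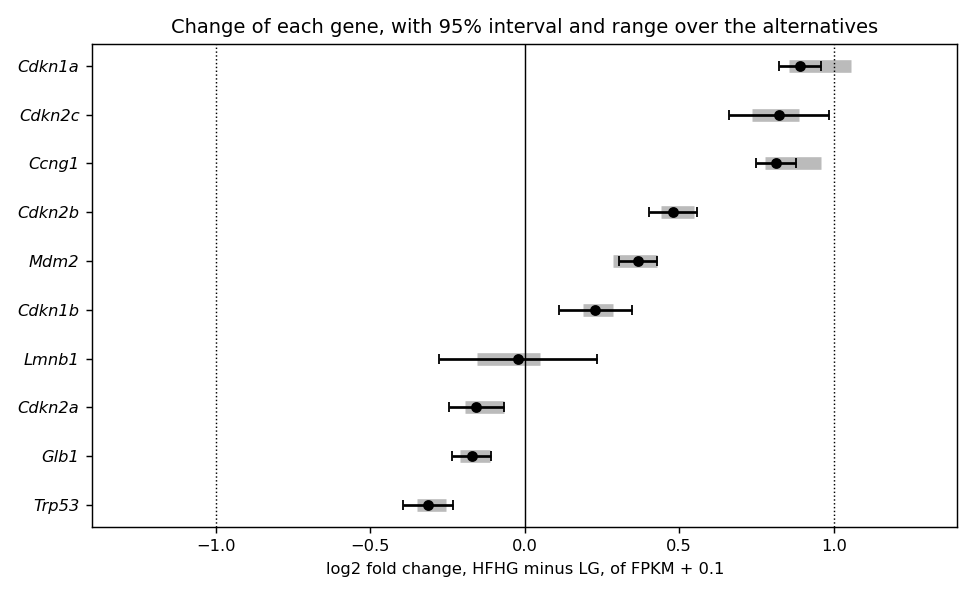
Log2 fold change of the 10 genes, HFHG minus LG, on the scale of FPKM + 0.1 (points), with 95% intervals (lines) and the range over 19 alternative analyses (grey bars); dotted lines mark a log2 fold change of 1 in either direction. Cdkn1a passes 1 under 1 alternative only (1.06 with quantile normalization), and Lmnb1 spans 0.

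The p53 axis genes were next compared. Trp53 encodes p53, Mdm2 its ubiquitin ligase and Ccng1 cyclin G1, a p53 target. The windows of these genes each hold 1 exact half-site, shown in capitals in the 250 bases before the RefSeq start.
Mdm2, chr10:117710759-117711008, minus strand: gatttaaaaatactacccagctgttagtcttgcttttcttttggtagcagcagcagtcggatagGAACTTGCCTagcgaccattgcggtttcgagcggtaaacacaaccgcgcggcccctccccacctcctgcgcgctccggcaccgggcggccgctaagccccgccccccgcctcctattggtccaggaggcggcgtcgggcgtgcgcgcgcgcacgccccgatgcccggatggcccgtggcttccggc
Ccng1, chr11:40755287-40755536, minus strand: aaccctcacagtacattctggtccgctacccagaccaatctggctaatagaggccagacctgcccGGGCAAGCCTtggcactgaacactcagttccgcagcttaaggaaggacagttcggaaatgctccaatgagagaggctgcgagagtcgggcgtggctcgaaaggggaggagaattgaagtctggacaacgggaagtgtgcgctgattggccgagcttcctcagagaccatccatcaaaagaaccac
Trp53, chr11:69580109-69580358, plus strand: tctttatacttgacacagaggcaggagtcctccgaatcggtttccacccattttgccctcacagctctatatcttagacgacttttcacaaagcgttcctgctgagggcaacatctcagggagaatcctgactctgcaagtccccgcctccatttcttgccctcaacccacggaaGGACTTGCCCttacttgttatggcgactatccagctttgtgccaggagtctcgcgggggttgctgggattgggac
The half-site begins 186 bases before the start in Mdm2, 185 in Ccng1 and 75 in Trp53. In Ccng1, the 10 bases directly before the marked site differ from the consensus by a single mismatch. Over the 9 genes with sequence here, 4 of 12 windows held a half-site, against 8.36% of all RefSeq windows. The windows of Cdkn1b, Cdkn2a, Cdkn2b, Cdkn2c and Glb1 held none.

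Trp53 itself (chr11:69580359-69591873, plus strand) was lower in HFHG. It measured 30.1, 29.5, 30.5 and 28.2 FPKM in HFHG and 36.8, 34.8, 37.3 and 38.1 FPKM in LG. Every HFHG library lay below every LG library. The log2 fold change was -0.31 (SE 0.0369, adjusted p = 9.07e-06), and -0.29 without LG replicate 4.

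Mdm2 (chr10:117688875-117710758, minus strand) moved the other way. Its values were 48.7, 48.9, 50.2 and 50.5 FPKM in HFHG and 38.5, 38.6, 39.2 and 37.3 FPKM in LG, with little spread in either group. On the log2 scale the fold change was 0.37 (SE 0.0281, adjusted p = 1.45e-07), and 0.35 without LG replicate 4. With the length trend removed it was 0.28; Mdm2 had the longest recovered counting length of the 10 genes, 7409 bases. The ratio of Mdm2 to Trp53 FPKM was 1.62 to 1.79 in HFHG and 0.980 to 1.11 in LG, where the ranges of both genes overlapped.

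Ccng1 (chr11:40748552-40755311, minus strand) was the second most abundant of the 10 genes. It measured 296, 291, 299 and 305 FPKM in HFHG and 170.1, 175, 174 and 159.9 FPKM in LG. The groups were far apart, and LG replicate 4 was the lowest library for this gene while it was the highest LG library for Cdkn1a. The log2 fold change was 0.81 (SE 0.0295, adjusted p = 1.27e-10), and 0.78 without LG replicate 4. The ratio of Cdkn1a to Ccng1 therefore overlapped between the groups, at 1.63 to 1.77 in HFHG and 1.49 to 1.82 in LG.

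**Figure D4:**
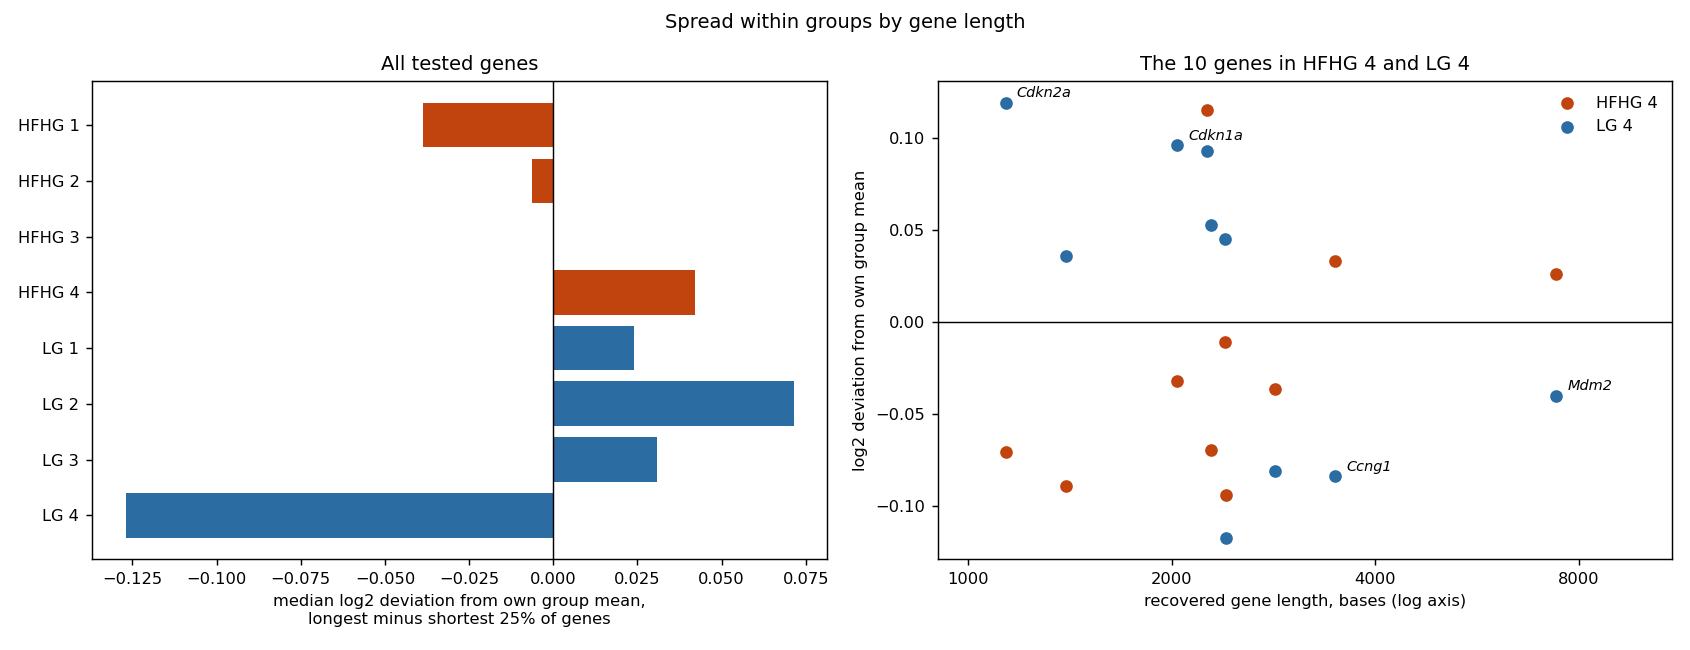
Left, for each library, the median log2 deviation from its own group mean in the longest 25% of tested genes minus that in the shortest 25% (bars; HFHG red, LG blue), where LG replicate 4 stands at -0.13. Right, log2 deviation of the 10 genes from their group mean in HFHG replicate 4 and LG replicate 4 against the recovered gene length (log axis), where Cdkn1a and Cdkn2a lie above 0 and Mdm2 and Ccng1 below 0 in LG replicate 4, with the signs turned in HFHG replicate 4. Not all genes turn sign: Cdkn1b and Lmnb1 lie below 0 and Cdkn2c above 0 in both of these libraries.

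Other p53 targets were counted beside them. Of 30, 19 were higher, 6 lower and 5 not called, and their median log2 fold change was 0.36, against 34% and 30.8% of all genes tested and their median of 0.02. Without LG replicate 4, 23 were called, 19 of them higher. The largest rises were those of Ckap2, a microtubule-binding protein gene (6.23 ± 0.507 and 2.12 ± 0.199 FPKM, log2 fold change 1.51), the antiproliferative gene Btg2 (27.8 ± 0.907 and 10.3 ± 0.703, 1.42) and the death-domain gene Pidd1 (2.62 ± 0.331 and 1.08 ± 0.0335, 1.19), and these 3 were the ones past a log2 fold change of 1. Lower were the growth arrest gene Gadd45a (132 ± 2.32 and 172 ± 5.06 FPKM, -0.38), the death receptor gene Tnfrsf10b (23.0 ± 1.18 and 26.3 ± 1.33, -0.19) and the metabolic phosphatase gene Tigar (3.12 ± 0.215 and 3.59 ± 0.254, -0.19, groups overlapping). A pair of apoptosis genes, named after their values were seen, differed in direction, with Fas at 14.7 ± 0.636 and 7.38 ± 0.370 FPKM (0.98) and Bax at 138 ± 4.17 and 149 ± 9.75 FPKM (-0.11, adjusted p = 0.0382, groups overlapping). The calls of Bax and Tigar were lost under 9 and 7 of the 19 alternatives, among them that without LG replicate 4 (adjusted p = 0.0717 and 0.0871), and Bax stood at 0.01 with the length trend removed. Of the windows of 22 targets with sequence, 8 of 31 held a half-site, against 8.36% of all RefSeq windows. None held 2 with at most 13 bases between them, against 0.0731% of all windows.

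Genes that act on p53 were split, with 4 of 14 tested higher and 6 lower, 71.4% called against 64.8% of all genes tested. The phosphatase gene Ppm1d, which switches p53 off (4.39 ± 0.524 and 2.93 ± 0.374 FPKM, 0.57), the Mdm2 partner Mdm4 (11.7 ± 0.374 and 8.01 ± 0.585, 0.54) and the kinase Hipk2 (5.21 ± 0.132 and 4.09 ± 0.347, 0.34) rose. The deacetylase Sirt1 (2.42 ± 0.343 and 3.49 ± 0.200, -0.52) and the damage kinases Atm (1.88 ± 0.236 and 2.45 ± 0.3002, -0.36) and Chek2 (1.22 ± 0.131 and 1.60 ± 0.246, -0.36) fell, the last 2 with overlapping groups, and the call of Chek2 was lost under 5 of the 19 alternatives (largest adjusted p 0.0698).

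Known regulators of the Cdkn2a and Cdkn2b locus were divided evenly, with 7 of 18 tested higher and 7 lower. The called share was 77.8%, against 64.8% of all genes tested. The inhibitor Id1, which restrains Cdkn2a in other cells, rose most (20.2 ± 0.644 and 6.82 ± 0.904 FPKM, 1.56), followed by the histone demethylase Kdm6b (4.93 ± 0.200 and 3.61 ± 0.205, 0.44). The activator Ets2 (21.5 ± 1.07 and 30.3 ± 0.391, -0.50) and the Polycomb genes Phc1 (2.28 ± 0.145 and 3.07 ± 0.216, -0.41) and Suz12 (11.0 ± 0.435 and 14.5 ± 1.01, -0.39) fell. Bmi1, the Polycomb repressor of Cdkn2a, named after its values were seen, stood at 6.90 ± 0.151 and 9.04 ± 0.542 FPKM (-0.38, adjusted p = 3.15e-05).

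**Figure D5:**
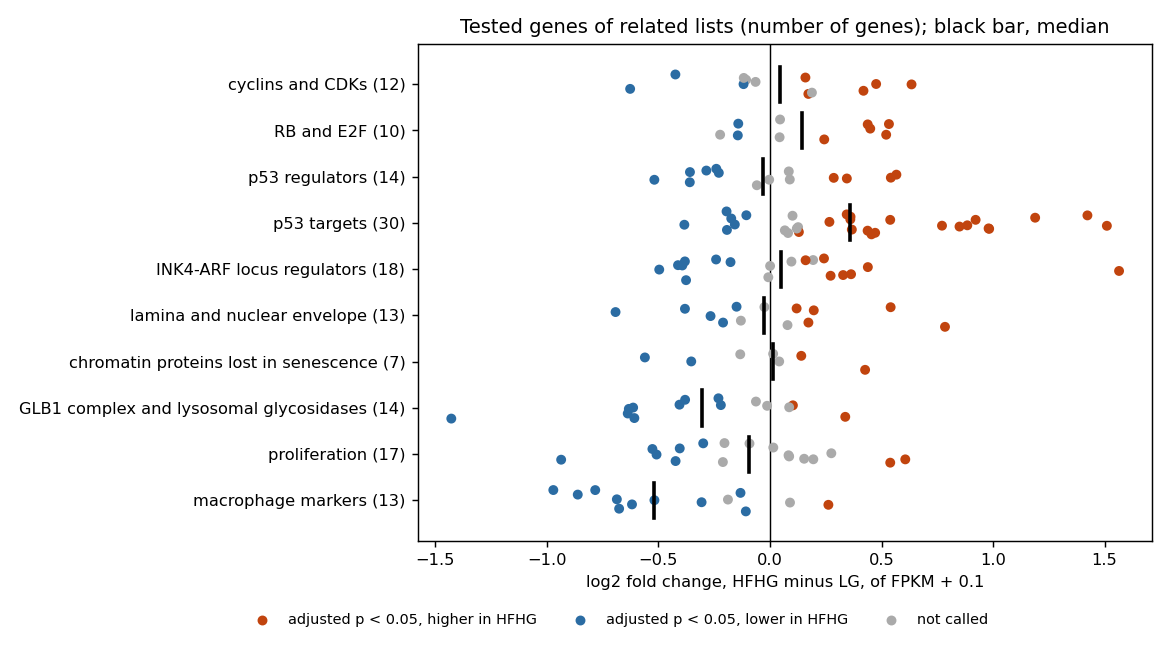
Log2 fold change, HFHG minus LG, of the tested genes of 10 lists (points; red and blue where the adjusted p was below 0.05, grey where not), with the number tested in brackets and the median as a black bar. The p53 targets have a median of 0.36, the list of the Glb1 complex and lysosomal glycosidases -0.31 and the macrophage markers -0.52.

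Lmnb1, which encodes the nuclear lamina protein lamin B1, lies on chromosome 18 and was the least abundant of the 10 genes. It measured 1.25, 1.10, 1.15 and 1.13 FPKM in HFHG and 1.29, 0.969, 1.38 and 1.11 FPKM in LG. The groups overlapped, and both the highest and the lowest value were LG libraries. The log2 fold change was -0.02 with a 95% interval of -0.28 to 0.23, or 0.825 to 1.18 as a fold (adjusted p = 0.880, exact permutation p = 0.857). The 95% interval comes from the spread between libraries, which limma combines with that of the other tested genes. The values rest on 111 to 133 reads per HFHG library and 100 to 139 per LG library. A change within the 95% interval cannot be told apart from no change here. Its sign turned under 1 rescaling and when either of 2 LG libraries was left out, and without LG replicate 4 the value was -0.05 (adjusted p = 0.755). Its relatives differed. Lmna, the gene of the A-type lamins, rose (118 ± 2.55 and 81.2 ± 3.26 FPKM, 0.54, adjusted p = 9.49e-09), and the ratio of Lmna to Lmnb1 FPKM was 94.8 to 110 in HFHG and 58.5 to 80.5 in LG. Of 13 lamina and envelope genes, 5 were higher and 5 lower, 76.9% called against 64.8% of all genes tested. Among them were the nesprin gene Syne2 (0.799 ± 0.0499 and 0.425 ± 0.0658, 0.78) and the lamina-associated gene Tmpo (4.88 ± 0.189 and 7.94 ± 0.127, -0.69). Of 7 chromatin genes known to be lost in senescence, 2 were higher and 2 lower, a called share of 57.1%. Hmgb2 (2.64 ± 0.273 and 1.95 ± 0.294, 0.43) and Hmgb1 (7.23 ± 0.134 and 6.55 ± 0.207, 0.14) were higher, and Uhrf1 (0.912 ± 0.0822 and 1.39 ± 0.153, -0.56) and H2az1 (49.0 ± 1.62 and 62.7 ± 3.05, -0.35) were lower. The call of Hmgb1 was lost with median-ratio scaling (adjusted p = 0.0645) and quantile normalization (0.0692).

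Glb1, at chr9:114401076-114474898 on the plus strand, encodes the enzyme behind the beta-galactosidase stain of senescent cells. Its transcript was lower in HFHG, at 40.6, 41.6, 42.2 and 41.1 FPKM against 47.2, 45.5, 45.7 and 48.1 FPKM in LG. All LG libraries lay above all HFHG libraries. The log2 fold change was -0.17 (SE 0.0291, adjusted p = 2.07e-04), and -0.16 without LG replicate 4. It shares 165 exon bases (5.49% of its exon length) with Tmppe on the same strand, a gene at 3.17 and 3.85 mean FPKM in HFHG and LG.

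Of 14 genes of the Glb1 complex and of lysosomal sugar breakdown, 9 fell and 2 rose, with a median of -0.31. The called share was 78.6%, against 64.8% of all genes tested. The list holds mostly glycosidases, and also the carboxypeptidase gene Ctsa and the sulfatase gene Galns. Gla, the alpha-galactosidase gene, fell most (28.8 ± 0.602 and 77.7 ± 1.63 FPKM, -1.43), and Hexa (137 ± 2.33 and 213 ± 5.80, -0.63) and Neu1 (11.3 ± 0.732 and 17.6 ± 0.939, -0.64) fell alongside. Neu1 is a partner of Glb1 in a lysosomal complex, as is the product of Ctsa, named after its values were seen, at 129 ± 1.77 and 197 ± 6.87 FPKM (-0.61). Fuca1, which removes fucose, rose (71.6 ± 0.920 and 56.7 ± 2.47, 0.34). Galns was the other gene called higher (log2 fold change 0.10, adjusted p = 0.0467), but its call was lost under 12 of the 19 alternatives (largest adjusted p 0.185). The summed FPKM of these 14 genes was 730.2 to 750.0 in HFHG and 984 to 1042 in LG. Most macrophage markers were lower in HFHG beside Glb1, Cdkn2a and Trp53, as given above, and their part in these results was not tested.

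By level, the 10 genes ran in HFHG from Cdkn1a through Ccng1, Cdkn2a, Cdkn2b, Mdm2, Glb1, Trp53, Cdkn1b and Cdkn2c to Lmnb1, and the ranges of Cdkn1b and Cdkn2c were the only neighbours to overlap. In LG the order was the same for the first 4, then Glb1, Mdm2, Trp53, Cdkn1b, Cdkn2c and Lmnb1, with Mdm2 and Trp53 overlapping. Mdm2 thus stood above Glb1 in HFHG and below it in LG.

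The genes whose profiles over the 8 libraries were closest to those of 4 of the genes were also listed, by the Euclidean distance of centred log2 values among 10671 tested genes averaging 1 FPKM or more. For Cdkn1a these were Aaas (distance 0.0707), Rcn3 (0.0767) and Serping1 (0.0882). Those of Cdkn2b were Hadha (0.0965), Pold4 (0.0985) and Dcaf5 (0.101). Cdkn2a was matched most closely by Egln2 (0.0660), Osgep (0.0684) and Srf (0.0824), and Lmnb1 by Cbll1 (0.207), Swsap1 (0.207) and Nrbp2 (0.229). The centring was over all 8 libraries, so genes with a similar difference between the groups come out close. Of the 4, Lmnb1 had the longest distances and also the fewest reads, and a part of depth in this was not tested.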

How the data were processed

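TSCs from mouse patellar tendon were cultured for 4 days in HFHG (25.5 mM glucose with 300 μM palmitic acid) or LG (5.5 mM glucose with DMSO) medium, 4 biological replicates each, and libraries were made with a stranded mRNA kit. The authors deposited FPKM values per gene, not pooled over replicates. The submitters' processing notes name HISAT2 2.1.0 and the mm10 build. The counting program, its strand setting and the annotation are not given in the sources used here. The annotation columns of the table (GO terms, pathways) were not used.

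The 10 genes and all gene lists were chosen with earlier results of these data known. Genes with at least 0.5 FPKM in at least 4 libraries (11710 of 19301) were tested by limma 3.58.1 (lmFit and eBayes with an intensity trend) in R 4.3.3 on log2(FPKM + 0.1), with p-values adjusted by the Benjamini-Hochberg method over all of them and a call at an adjusted p below 0.05. This scale understates the change of low genes. An exact permutation test, two-sided, over 70 arrangements was run beside it for each of the 10 genes. Of the lists, the genes named were those with the largest log2 fold change among the called, at most 3 in each direction, with all CDK inhibitors, cyclins and CDKs, and others are said to be named after their values were seen. For 4 of the 10 genes the 3 nearest profiles were named. Whole reads were recovered for 19300 of 19301 genes by searching for the library totals and gene lengths that make each value whole to within 1e-05 reads, which gives depth and length. Intervals come from the spread between libraries, with the variance of each gene drawn by eBayes towards a trend over all tested genes. Gene positions are from GENCODE M21 and promoters from RefSeq on the same build. The alternatives were other pseudocounts (1 and 0.01), filters (none, or 1 FPKM), scalings, a robust variance model, limma voom on recovered reads, the replicate number as a block, each library left out, and, added after the data were seen, removal of a lowess trend on gene length. Scripts were tested on simulated data. No Lmnb1 promoter sequence was used here. The values of 1 gene that the naming rule picks are not reported here.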

Additional observations from a re-analysis of the deposited data

Results flagged for a closer look

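In 194 groups of 4 libraries, 12 single values lay far from the other 3 by Dixon's test, and chance gives about 1 in 20 groups. The one among the 20 groups of the 10 genes was Cdkn2a in LG replicate 4, at 148 FPKM against 131 to 134 in the other LG libraries. LG replicate 4 was also high for Neu1 (19.0 FPKM), Fuca1 (60.4) and Serping1 (315). In HFHG replicate 1, Ccne2 (0.759 FPKM) and Cbll1 (3.07) were high. Ppm1d was high in HFHG replicate 2 (5.17 FPKM), and Phc1 (2.50) and Ets2 (23.1) were high in HFHG replicate 3. Ets2 was low in LG replicate 2 (29.7 FPKM), Neu1 was high in HFHG replicate 4 (12.4) and Pdgfra, a mesenchymal marker, was high in LG replicate 1 (9.99). No explanation was tested.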

How the results depend on the processing

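Over 19 alternatives, 6 of the 10 genes were called higher in each. Of the lower genes, 3 were called in 18 alternatives and 2 with the length trend removed, where Cdkn2a was not called. Quantile normalization put 1 gene, Cdkn1a, past a log2 fold change of 1 (1.06, range 0.85 to 1.06), against 0 as reported and in the other 18. Lmnb1 changed sign, with no call, to 0.033 with FPKM rescaled to the same sum, to 0.02 without LG replicate 1 and to 0.049 without LG replicate 3, and leaving out 1 library gave -0.11 to 0.049. Genes called in all ran from 7177 to 7839, and p53 targets from 22 to 25. Scaling moved the median log2 fold change of all genes to between -0.02 and 0.07. With the replicate number as a block, 7342 genes and 9 of the 10 were called; same-numbered libraries did not deviate together (r from -0.07 to -0.01 over genes), and none was closest to its own number, so the numbers give no pairing. Lmnb1 had the fewest reads of the 10 genes (100 to 139 per library), and a part of depth in its missing call was not tested.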

Other observations

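Among the mesenchymal stem cell markers, 7 of 9 were higher in HFHG and 2 lower, so all were called, against 64.8% of all genes tested. Ly6a, a surface protein gene of progenitor cells, stood at 701 ± 12.1 FPKM in HFHG and 425 ± 12.0 in LG (SD, n = 4, log2 fold change 0.72), Vcam1 at 105 ± 1.39 and 57.8 ± 0.796 (0.86) and Pdgfra at 22.2 ± 0.254 and 9.59 ± 0.263 (1.20). Nes was lower (3.73 ± 0.267 and 4.50 ± 0.247, -0.26), as was Cd44 (64.6 ± 1.30 and 70.8 ± 0.832, -0.13). Endothelial and muscle genes were at low levels, with summed FPKM of 2.77 to 2.86 and 0.759 to 1.70 in HFHG and 2.28 to 2.66 and 3.19 to 4.06 in LG. Of these, 3 of 7 endothelial genes and 1 of 5 muscle genes were tested, and the actin gene Acta1 stood at 0.904 ± 0.252 and 3.38 ± 0.378 FPKM (-1.82), while Myod1 was listed at 0 in every HFHG library.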
